A study of Mus musculus with 8 samples.

Results

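The deposited gene table held 8 libraries in 2 sets of 4. The column names of the first set began with R137L5 and those of the second with R143, and both sets held the same 4 AGM numbers. A number stood for 1 cell line in 1 condition, so the sets were compared as 4 pairs, R143 against R137L5, over all genes. All 8 libraries of the series took part. The labels do not say what the prefixes stand for, nor whether the libraries of a pair came from 1 culture or RNA sample or from separate ones. P-values therefore measure only how far these libraries scatter, and that scatter may be technical.

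The cells were stable lines made from WEHI-231, a mouse B cell lymphoma line of immature type that stops dividing when its receptor is crosslinked. AGM 1 was the line WEHI-control without stimulation and AGM 2 the line WEHI-miR-148a without stimulation, a line named for a microRNA. AGM 3 was WEHI-control and AGM 4 WEHI-miR-148a, both after 14 h with anti-IgM at 2 ug/ml, an antibody that crosslinks the B cell receptor. Whether a line was 1 clone is not stated in the labels. Both sets were made from RNA selected on oligo-dT beads with a kit that keeps the strand.

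Oligo-dT beads hold messenger RNA by its poly(A) tail. Messages of the replication-dependent histones, whose genes stand in clusters, end in a conserved stem-loop that the stem-loop binding protein Slbp holds, and they normally carry no tail. Replacement histones, made through the whole cell cycle, have ordinary tailed messages. The RNA parts of RNase MRP and RNase P, ribosomal RNA precursors and much intron RNA also lack a tail, so the level of such RNA in a library depends on how strictly tailed RNA was selected as well as on the cells.

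The sequences below show these 2 end elements in histone messages. Not every gene that holds the stem-loop differed between the sets, as given with the counts by element. They are from GENCODE transcripts of GRCm38, written 5′ to 3′ in the sense of the gene, with the stem-loop or the polyadenylation signal AATAAA in capitals. The first 4 genes were among those with large differences between the sets.
Hist1h1e, stem-loop: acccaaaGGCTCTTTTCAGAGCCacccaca
Hist2h3c2, stem-loop: ccacaaaGGCTCTTTTCAGAGCCaccacag
Hist2h2aa1, stem-loop: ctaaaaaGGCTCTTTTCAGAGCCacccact
Hist1h2ap, stem-loop: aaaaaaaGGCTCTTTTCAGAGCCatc
The next 4 belong to 3 genes that did not pass the test, of which Hist1h1c holds both elements and H2afz only the signal.
Hist1h1c, stem-loop: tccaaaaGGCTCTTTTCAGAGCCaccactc
Hist1h1c, polyadenylation signal: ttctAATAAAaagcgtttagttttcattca
Hist2h2be, polyadenylation signal: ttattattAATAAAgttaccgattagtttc
H2afz, polyadenylation signal: ggtggataagctcAATAAAggtcatatccc

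Totals ran from 5810227 to 18660373 counts per library. The ratio of totals, R143 over R137L5, was 0.610 and 0.984 in the unstimulated pairs and 1.95 and 1.76 in the anti-IgM pairs, so depth differed in opposite directions in the 2 conditions. The libraries of a pair differed beyond sampling noise (chi-square averaged over genes, 9.78 to 14.0). On the principal components, the 2 library sets parted on the second (21.1% of the variance), after the stimulus (49.4%) and before the line (14.4%). B lineage genes were expressed in every library, with Cd79a, a signalling chain of the B cell receptor, at 481 to 769 CPM. CPM is a count relative to its library's total after TMM scaling. Summed over each list, fibroblast markers were at 0.609 to 1.48 CPM in R137L5 and 0.451 to 0.845 in R143, and myeloid markers at 2.88 to 12.2 and 2.54 to 14.8 CPM. T cell markers were at 40.7 to 61.9 and 47.4 to 71.1 CPM, nearly all of it Cd8b1, with Cd28 at 0 counts. Endothelial and epithelial markers were at 36.5 to 93.5 and 31.9 to 134 CPM, mostly Pecam1 and Krt18, with Kdr and Epcam at 0 counts.

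Of 11291 genes tested, 2123 differed between the sets (18.8%). In R143, 1098 genes were higher (9.72%) and 1025 were lower (9.08%), by edgeR's quasi-likelihood test with the AGM number as a block and Benjamini-Hochberg adjustment at 0.05. DESeq2 called 590 higher and 613 lower, and edgeR without the block 81 and 4. Without the AGM 1, 2 or 3 pair, 672, 692 and 725 genes were called higher and 640, 635 and 708 lower. The median log2 fold change over all genes tested was 0.00. Large differences were mostly rises, with 200 of the called genes at a log2 fold change of at least 1 and 19 at -1 or below. Among those 200 were 41 clustered histone genes, 52 genes that lie inside another gene and 38 predicted or RIKEN clone genes, and a gene could belong to more than 1 of these groups. Of all 11291 genes tested, 52 were clustered histone genes, 187 lay inside another gene, 145 were predicted genes and 423 RIKEN clone genes. A row that passed the filter on low counts only through its level in 1 set, R143 or R137L5, had to differ, so these counts are a description. Of the called genes, 1052 of the higher and 990 of the lower had the same sign in all 4 pairs. Over all genes tested, the differences of any 2 pairs correlated with r of 0.495 to 0.569, which describes these libraries, since genes are not independent.

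Clustered histone genes were several times higher in R143 than in R137L5 in every pair. The 68 rows of such genes, of histones H1, H2A, H2B, H3 and H4, together held 56.3, 57.7, 61.2 and 80.4 CPM in R137L5 (AGM 1 to 4) and 248, 267, 336 and 324 CPM in R143. The sets did not overlap, and the ratio within a pair was 4.40, 4.63, 5.48 and 4.03, although the depth ratio of the same pairs ran from 0.610 to 1.95. As raw counts the same rows summed to 1017, 753, 366 and 489 in R137L5 and to 2748, 3478, 3861 and 3513 in R143. These sums need no filter on low values and do not depend on how counted reads were split among the 68 rows. Reads that match several copies and were dropped, or given to other rows, would change them. How such reads were handled is not given in the sources used here.

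By histone type, the ratio of summed levels was largest for H2A in each of the 4 pairs. The 18 H2A rows summed to 12.6 to 16.8 CPM in R137L5 and 109 to 152 in R143, a ratio of 6.76 to 10.2 within pairs. For the 12 H3 rows the ratio was 5.48 to 8.30, for the 13 H4 rows 3.84 to 5.44, for the 19 H2B rows 2.12 to 3.62 and for the 6 H1 rows 1.99 to 3.49. These ratios are descriptions without a test.

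**Figure D1:**
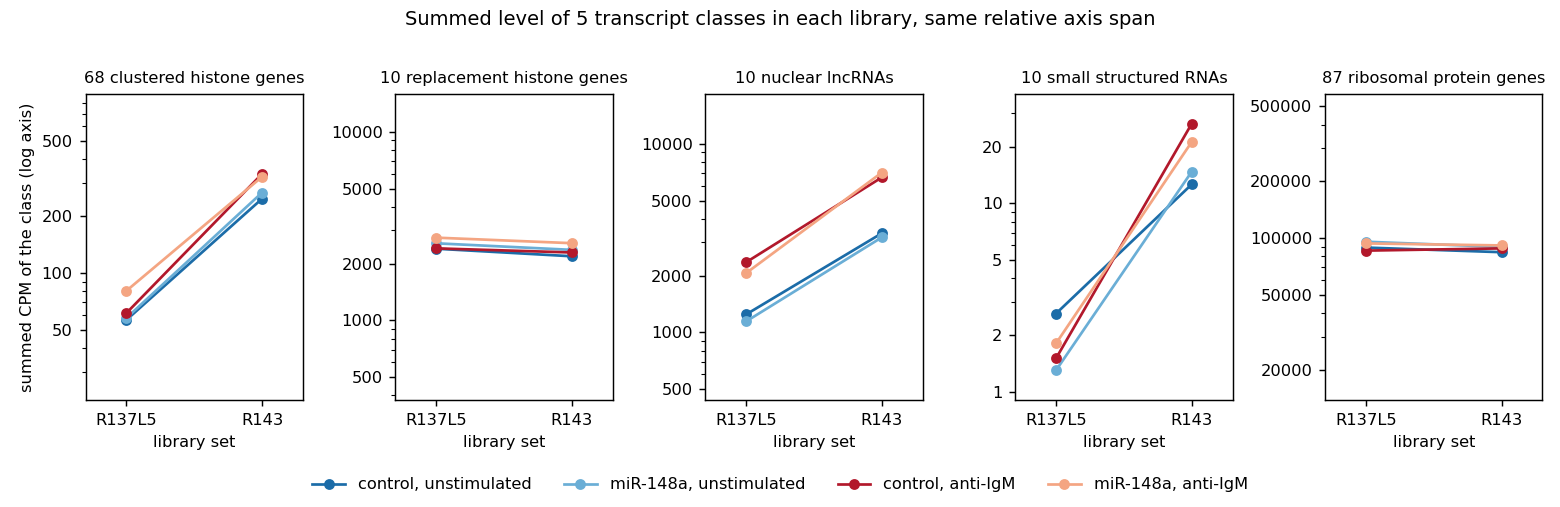
Summed CPM of 5 transcript classes in each library on log axes of equal relative span, R137L5 on the left and R143 on the right of each panel, with a line for each of the 4 pairs. The small structured RNAs are shown without Rn45s, and the nuclear RNA sum is mostly Malat1; these 2 sums and that of the clustered histone genes were higher in R143 in every pair, whereas replacement histone and ribosomal protein genes lay almost level.

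Hist1h1e encodes an H1 linker histone and lies on chromosome 13 from 23620629 to 23622558 (GRCm38). It was at 0.665, 0.536, 0.502 and 0.164 CPM in R137L5 and at 11.7, 14.0, 23.3 and 18.6 CPM in R143. No R137L5 library came near the lowest R143 library, and the log2 fold change was 4.81 ± 0.22 (standard error, adjusted p = 6.63e-09). Hist1h2ap, an H2A gene on chromosome 13, was named after its values were seen. It went from 4.60, 8.43, 7.20 and 8.55 CPM to 72.1, 74.8, 94.4 and 110 CPM (log2 fold change 3.60 ± 0.11, adjusted p = 5.49e-11).

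Hist2h3c2, an H3 gene of the cluster on chromosome 3, was at 0.610, 0.536, 0.670 and 0.987 CPM in R137L5 and at 9.93, 9.76, 15.2 and 13.7 CPM in R143 (log2 fold change 4.08 ± 0.19, adjusted p = 6.63e-09). Its neighbour Hist2h2aa1, an H2A gene, was at 0.720, 0.996, 1.51 and 1.15 CPM and at 13.6, 12.5, 20.3 and 16.7 CPM (log2 fold change 3.88 ± 0.17, adjusted p = 3.36e-09). For Hist2h2bb, an H2B gene beside them, the values were 0.610, 0.613, 0.335 and 0.329 CPM in R137L5 and 9.02, 11.4, 12.2 and 10.9 CPM in R143 (log2 fold change 4.29 ± 0.22, adjusted p = 1.36e-08). All 3 genes thus stayed under 2 CPM in the first set and reached at least 9 CPM in every library of the second. Several genes of this cluster have near-identical copies, so the split of reads among single rows is uncertain. The other genes among the 10 largest rises were Hist1h4k (log2 fold change 4.85 ± 0.49), Hist1h2bn (4.45 ± 0.58), Hist2h3c1 (4.21 ± 0.33) and Hist2h3b (4.05 ± 0.49), each at about 1 CPM or less in every R137L5 library and above 2 CPM in every R143 library. Hist1h4a, an H4 gene, had 0 counts in R137L5 and 43 in R143 and was at least 13.3-fold higher, set against 3 counts over the 4 R137L5 libraries.

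Of the 68 clustered histone rows, 64 had a count and 52 passed the filter on low counts. A row that passed only through its R143 level had to differ, so the 42 called higher and 0 called lower are given as a description. With no filter at all, 49 of the 64 rows were called higher and 2, Hist1h1c and Hist2h2be, lower, where 7.57% of all genes were called higher. In 44 of the 64 rows every R143 library lay above every R137L5 library, which held for 4.52% of all genes with a count. With at least 1 CPM asked of every library, only 5 rows remained and 2 of them were called higher, where the background was 9.24%. These 2 were Hist1h2ap and Hist1h2bc, and the 3 that did not pass were Hist1h1c, Hist1h4i and Hist2h2be.

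Of the 52 clustered histone genes that passed the filter, 10 were not called. Hist1h1c, another linker histone, was at 15.2, 13.2, 15.2 and 22.4 CPM in R137L5 and at 12.1, 10.5, 16.7 and 11.3 CPM in R143 (log2 fold change -0.38 ± 0.14, adjusted p = 0.0719). Hist2h2be, an H2B gene, was at 6.71, 6.59, 11.6 and 14.1 CPM and at 6.05, 6.38, 8.09 and 8.95 CPM (log2 fold change -0.34 ± 0.14, adjusted p = 0.0933). Hist1h4i, an H4 gene, was at 1.05, 1.69, 1.34 and 2.80 CPM and at 1.8, 1.08, 2.35 and 1.48 CPM, and its fitted difference was 0.00 ± 0.33 (adjusted p = 0.997). With no filter, Hist1h1c was called lower (-0.39, adjusted p = 0.00372), as it was without the AGM 3 pair (-0.54, adjusted p = 0.0221), and Hist2h2be was called lower with no filter (-0.36, adjusted p = 0.0495). These 3 genes were named after their values were seen.

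Elements at the 3′ end were looked up in the GENCODE transcripts of each gene. The histone stem-loop motif of 16 bases was sought in whole transcripts and the signal AATAAA in their last 40 bases, on the gene's own strand. The stem-loop motif was present in a transcript of 0.139% of the 10759 other genes tested and the signal in 76%. With no filter, 28 of 33 clustered histone rows with a stem-loop and no signal were called higher and 0 lower. In the same fit 7.57% of all genes were called higher. Rows with both elements numbered 11, and of the 9 with a count 4 were called higher and 1 lower. As sums, rows with the stem-loop alone went from 21.7 to 28.1 CPM in R137L5 to between 174 and 231 CPM in R143, ratios of 6.69 to 9.80 within pairs. For rows with both elements the ratio was 1.06, 1.37, 1.79 and 0.969 (AGM 1 to 4). Hist1h1c held most of that sum, and without it the ratio was 2.01, 4.12, 5.53 and 2.89. Hist2h3c1 holds both elements and was among the 10 largest rises, Hist1h4i holds the stem-loop alone and was not called, and Hist1h4a holds the signal alone. This grouping was made after the values were seen, and the difference between the groups was not tested. Of 20 rows with neither element in these transcripts, 18 had a count and 16 were called higher, with a ratio of sums of 5.87 to 8.52. Several of these have short annotated transcripts, 312 bases for Hist1h4k and 381 for Hist1h2bn and Hist2h2bb. An element past the annotated end would be missed, so this group does not show that the messages lack the stem-loop. Of 4 with the signal alone, 1 was called higher and 1 lower, with a ratio of sums of 0.660 to 1.06.

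**Figure D2:**
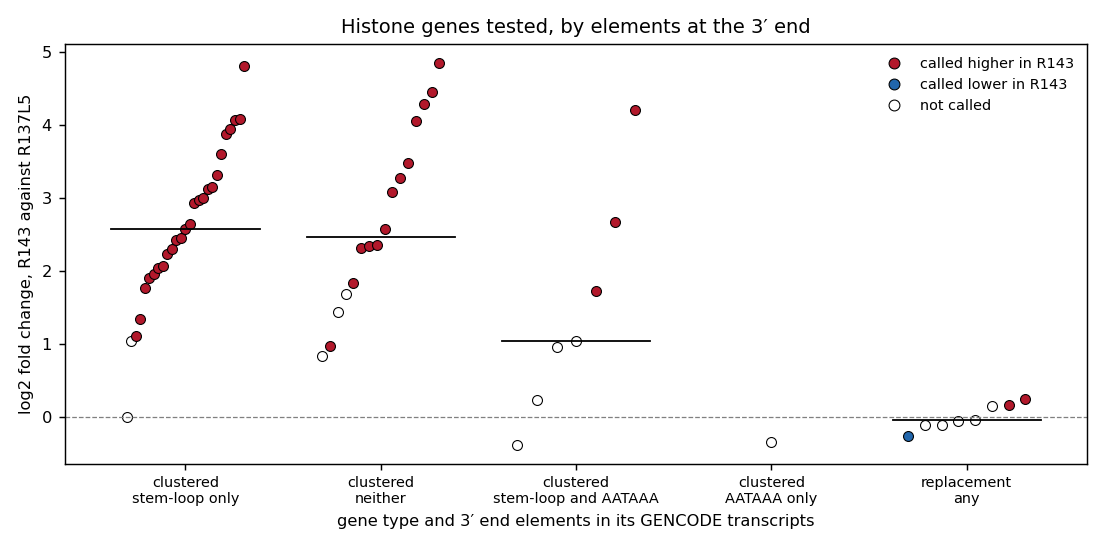
Fitted log2 fold change, R143 against R137L5, of each histone gene that passed the filter except Hist1h4a (0 counts in R137L5), grouped by gene type and the elements found at its 3′ end, with a line at each median (red called higher, blue lower, white not called). As a description of genes that passed the filter, clustered genes with the stem-loop alone had a median of 2.58 with Hist1h4i at 0.00, and the 8 replacement histone genes lay between -0.27 and 0.25.

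Replacement histone genes were nearly level between the sets. The 10 rows summed to 2400, 2563, 2410 and 2746 CPM in R137L5 and to 2188, 2366, 2292 and 2567 CPM in R143, ratios of 0.912 to 0.951. H2afz, which encodes H2A.Z and is named after its values were seen, was at 742, 762, 762 and 789 CPM and at 748, 757, 713 and 739 CPM (log2 fold change -0.05 ± 0.05, adjusted p = 0.523). H3f3b, an H3.3 gene, fell from 751, 836, 768 and 882 CPM to 630, 691, 683 and 685 CPM (log2 fold change -0.27 ± 0.05, adjusted p = 0.00205). H2afx, the H2AX gene, is known to make both tailed and untailed messages. Its stem-loop lies 822 bases before the end of its annotated transcript, and that of Hist1h1e, which rose, lies 1153 bases before its end. H2afx was at 183, 169, 220 and 241 CPM in R137L5 and at 181, 172, 218 and 250 CPM in R143 (log2 fold change 0.02 ± 0.05, adjusted p = 0.856).

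Lists of histone message processing, DNA replication and mitosis genes were counted the same way, beside 9.72% higher and 9.08% lower of all genes. Of 12 genes of histone message processing, 1 was called higher and 1 lower, and with no filter 0 and 2. Slbp itself was at 209, 200, 211 and 199 CPM in R137L5 and at 163, 175, 177 and 183 CPM in R143. Its log2 fold change was -0.24 ± 0.05 (adjusted p = 0.00856), and without the AGM 1 pair it was -0.19 and lost the call (adjusted p = 0.0787). Of 32 DNA replication genes, 3 were called higher and 2 lower (9.38% and 6.25%), shares near the background, with a median log2 fold change of 0.02. The summed level of these 32 genes changed by a factor of 0.988 to 1.04 within pairs. Of 25 mitosis genes, 2 were called higher and 6 lower (8% and 24%), and the median was -0.10. Mki67, a proliferation marker, rose from 2009, 1926, 2563 and 2267 CPM to 2635, 2678, 2776 and 3245 CPM (log2 fold change 0.38 ± 0.06, adjusted p = 0.000866), while Ccnb1, the mitotic cyclin B1, fell from 217, 214, 232 and 275 CPM to 187, 188, 178 and 177 CPM (log2 fold change -0.35 ± 0.07, adjusted p = 0.00295).

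Among other RNAs that lack a tail, the RNA parts of RNase MRP and RNase P and the row of the ribosomal RNA precursor, Rn45s, were higher in R143. Few snoRNAs were higher. Apart from Rn45s, the 10 rows of the list of small structured RNAs summed to 1.3 to 2.60 CPM in R137L5 and to 12.6 to 26.5 CPM in R143. With no filter, 2 of the 5 with a count were called higher, Rmrp and Rpph1, where 7.57% of all genes were called higher. Rmrp, the RNA part of RNase MRP, was at 2.11, 0.690, 1.0 and 1.48 CPM in R137L5 and at 10.7, 12.2, 22.4 and 17.2 CPM in R143 (log2 fold change 3.31 ± 0.24, adjusted p = 1.01e-06). Rpph1, the RNA part of RNase P, went from 0.333, 0.383, 0.335 and 0 CPM to 1.8, 2.31, 3.83 and 3.78 CPM (log2 fold change 3.06 ± 0.40, adjusted p = 0.000216). Both RNAs are made by RNA polymerase III, and for both the 2 sets did not overlap. In R143 both were higher in the anti-IgM than in the unstimulated libraries.

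The row Rn45s, named for the 45S precursor of ribosomal RNA, was at 459, 714, 879 and 1238 CPM in R137L5 and at 1429, 1596, 2974 and 4103 CPM in R143. Its log2 fold change was 1.57 ± 0.08 (adjusted p = 1.36e-08), and the anti-IgM libraries were above the unstimulated ones in both sets. The precursor also holds the mature ribosomal RNA sequences, and the 2 cannot be told apart in a table of gene symbols. Of 119 snoRNA and scaRNA rows, guide RNAs that direct RNA modification, 46 had a count and 4 passed the filter. These 119 rows summed to 7.53 to 9.92 CPM in R137L5 and to 8.39 to 12.3 CPM in R143, ratios of 1.05 to 1.27. Snord22 lies inside its host Snhg1 on the same strand and overlaps an exon of some annotated Snhg1 transcript. Which transcript holds that exon was not looked up. Snord22 did not pass, at 0.04 ± 0.25 on the log2 scale (adjusted p = 0.929). With no filter, 2 of the 46 were called higher and 0 lower, where 7.57% of all genes were called higher. At these depths, with 45 to 179 counts over the whole class in a library, small differences were not detectable.

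Of 10 rows of nuclear long noncoding RNAs, 6 had a count, and with no filter 3 of the 6, Kcnq1ot1, Malat1 and Neat1, were called higher and 0 lower. In the same fit 7.57% of all genes were called higher. The 10 rows of the list summed to 1246, 1144, 2355 and 2063 CPM in R137L5 and to 3359, 3195, 6643 and 7048 CPM in R143, most of it Malat1, and without Malat1 the ratio within pairs was 2.12 to 2.52. Kcnq1ot1 is an imprinted antisense transcript without introns on chromosome 7, from 143203458 to 143296549. It was at 26.7, 31.3, 23.8 and 18.6 CPM in R137L5 and at 234, 207, 205 and 181 CPM in R143. No library of one set approached the other, and the log2 fold change was 3.03 ± 0.08 (adjusted p = 2.06e-11). Malat1, whose end is cut by RNase P and carries no poly(A) tail, went from 1095, 991, 2173 and 1851 CPM to 2979, 2836, 6196 and 6602 CPM (log2 fold change 1.58 ± 0.06, adjusted p = 7.64e-10). Both libraries of the anti-IgM condition held more Malat1 than the unstimulated ones in each set. Neat1, which builds nuclear paraspeckles and has a tailed short and an untailed long form, went from 77.8, 69.5, 102 and 142 CPM to 95.4, 97.8, 194 and 212 CPM (log2 fold change 0.57 ± 0.08, adjusted p = 0.000367). For Neat1 the sets overlapped, and each pair rose. The short and long forms cannot be told apart in a table of gene symbols.

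Host genes of snoRNAs, whose spliced messages are tailed, moved in both directions. Of 9 that passed the filter, Snhg7 was called higher (0.61) and Snhg5 and Gas5 lower, beside 9.72% and 9.08% of all genes. Snhg7 lost its call with DESeq2 (adjusted p = 0.225) and without the AGM 1, 2 or 3 pair (0.0632, 0.141 and 0.0505), and Snhg5 without the AGM 2 pair (0.0934). Gas5 fell from 362, 347, 217 and 187 CPM to 277, 275, 205 and 138 CPM (log2 fold change -0.31 ± 0.06, adjusted p = 0.00284).

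Among the 10 largest rises stood 2 genes with no link to histones, Fam196b and Lrrc18, and both lie inside an intron of a highly expressed gene on the other strand. Fam196b, on chromosome 11 from 34314822 to 34422640, sits within Dock2, a Rac activator of lymphocytes. It was at 1.39, 1.07, 0.502 and 0.658 CPM in R137L5 and at 16.7, 15.1, 15.4 and 22.6 CPM in R143 (log2 fold change 4.01 ± 0.19, adjusted p = 7.69e-09). Its host Dock2 was at 369, 400, 313 and 351 CPM and at 403, 420, 368 and 397 CPM (log2 fold change 0.15 ± 0.05, adjusted p = 0.0477). The call of Dock2 was lost without any 1 of the 4 pairs (0.12 to 0.18, adjusted p = 0.0724 to 0.187) and with DESeq2 (0.15, adjusted p = 0.0840).

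Lrrc18, on chromosome 14 from 32991382 to 33015291, sits within Wdfy4, a gene of antigen presenting cells. Lrrc18 went from 0.443, 0.613, 0.670 and 0.493 CPM to 9.11, 6.84, 8.17 and 10.8 CPM (log2 fold change 3.96 ± 0.23, adjusted p = 5.87e-08). Its host went from 1110, 865, 902 and 841 CPM to 1430, 1195, 1178 and 1214 CPM (log2 fold change 0.44 ± 0.05, adjusted p = 5.92e-05). The differences of gene and host were not tested against each other.

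Other genes in such a position form a group that was chosen after these values were seen. A gene counted as inside another where its whole span lay within another GENCODE gene that had at least 10 CPM. The table held 283 such rows on the strand opposite to the host and 586 on the same strand. Of the 222 opposite-strand rows with a count, 69 were called higher and 5 lower with no filter, where 7.57% of all genes were called higher. Of the 113 same-strand rows with a count, 19 were called higher and 3 lower. In 67 of the 222 and 13 of the 113, every R143 library lay above every R137L5 library (4.52% of all genes with a count). Genes tested that do not lie inside another gene were called higher in 9.13% and lower in 9.26% of 10624.

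Opposite-strand rows that touch no exon of the host numbered 168, and 121 had a count. Of those 121, 44 were called higher and 3 lower with no filter. Summed, the 168 rows were at 806 to 919 CPM in R137L5 and at 932 to 1075 CPM in R143, ratios of 1.10 to 1.17 within pairs. With at least 1 CPM in every library, 11 of 33 such genes were called higher and 2 lower, with a median log2 fold change of 0.19. In that fit 935 of all 10114 genes were called higher (9.24%) and 968 lower. The 170 host genes had a median of 0.03. Sums over the other groups of inner genes did not rise in every pair. Over all 283 opposite-strand rows the ratio of sums was 0.952 to 1.002 within pairs, and over all 586 same-strand rows 0.969 to 1.07. For the same-strand rows that touch no exon of the host it was 0.919 to 1.04.

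Lrrc4, a leucine-rich repeat gene inside Snd1, was at 0.554, 0.766, 0.167 and 0.493 CPM in R137L5 and at 7.31, 5.30, 5.57 and 4.71 CPM in R143 (log2 fold change 3.42 ± 0.27, adjusted p = 2.33e-06), and Snd1 did not pass (0.08 ± 0.05, adjusted p = 0.280). Gpr183 encodes an oxysterol receptor that positions B cells in follicles and lies inside Ubac2. It was at 2.72, 1.69, 8.04 and 6.58 CPM and at 5.69, 5.61, 15.5 and 17.4 CPM (log2 fold change 1.24 ± 0.15, adjusted p = 0.000123), and Ubac2 did not pass (0.02 ± 0.05, adjusted p = 0.802). In both sets Gpr183 was higher with anti-IgM than without. Alas2, a heme synthesis gene on the list of erythroid markers, lies inside Apex2 on the opposite strand and went from 0.665, 0.766, 0.670 and 0.493 CPM to 1.99, 1.23, 2.09 and 2.12 CPM (log2 fold change 1.41 ± 0.32, adjusted p = 0.00821, and 0.0531 without the AGM 1 pair). The summed level of the 6 erythroid markers was 0.942 to 1.53 CPM in R137L5 and 1.38 to 3.30 CPM in R143. Lrrc4 and Gpr183 and their hosts were named after their values were seen. The kit keeps strand, but the strand setting of the counting is not given in the sources used here, so reads of a gene inside another and reads of its host cannot be told apart.

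**Figure D3:**
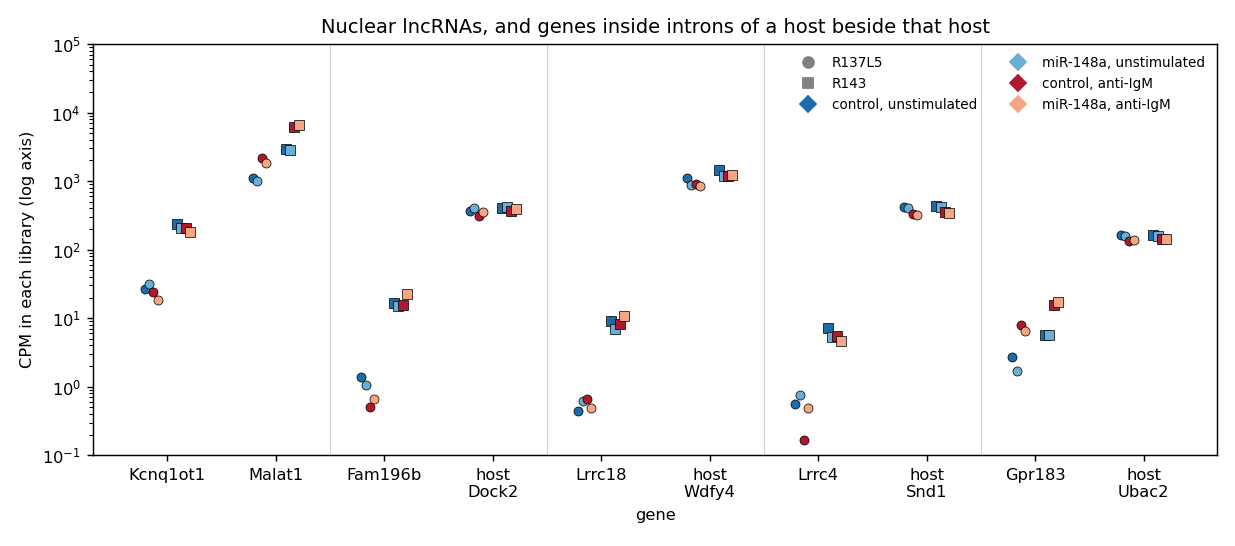
CPM in each library (log axis) of 2 nuclear long noncoding RNAs and of 4 genes that lie inside introns of a host, each beside its host (circles R137L5, squares R143, coloured by line and condition). In R143 the inner genes were higher in each pair, Gpr183 by 1.24 and Fam196b by 4.01 on the log2 scale, and of the 4 hosts Wdfy4 differed most, by 0.44. Fam196b and Lrrc18 were picked among genes with the same sign in every pair.

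By GENCODE class, of 72 antisense genes that passed the filter, 23 were called higher and 0 lower, by edgeR, with a median log2 fold change of 0.47. Of 54 lincRNA genes, 10 were higher and 0 lower (median 0.10), and of 10477 protein coding genes 9.34% were higher and 9.33% lower. Many antisense genes are weakly expressed, and the caution on filtered members holds for them too. Predicted genes were called higher in 26 and lower in 10 of 446 rows with a count and no filter, and RIKEN clone genes in 69 and 26 of 889. Over all 15449 genes with a count, 1169 were called higher and 1380 lower in the same fit, so the shares called higher lay near or under the background of 7.57%.

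Smaller differences ran with the base composition of the transcript. Across 10811 genes with a GENCODE transcript, GC content and the log2 fold change correlated with Spearman's rho of 0.391, and with 0.275 to 0.313 in the single pairs. Genes share the libraries in this, so the values describe them and carry no p. Genes with a GC content of 40% or below had a median difference of -0.16 on the log2 scale, and 34.6% of these 583 genes were called lower and 2.57% higher. Genes above 60% had a median of 0.13, and 1.08% of these 465 genes were called lower and 18.9% higher. Of the 990 called lower with a GC value, 82.4% had a GC content of 48% or below, against 22.8% of the 1049 called higher and 40% of all genes with a value. The 52 clustered histone genes that passed the filter, with a median GC content of 58.3%, had a median difference of 2.36 after the median of their GC bin was subtracted. Rows that passed only through their R143 level had to differ, so this value is a description. The 5 rows with at least 1 CPM in every library had a median of 0.00 without that subtraction. Kcnq1ot1, at 40.3% GC, rose against the trend.

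**Figure D4:**
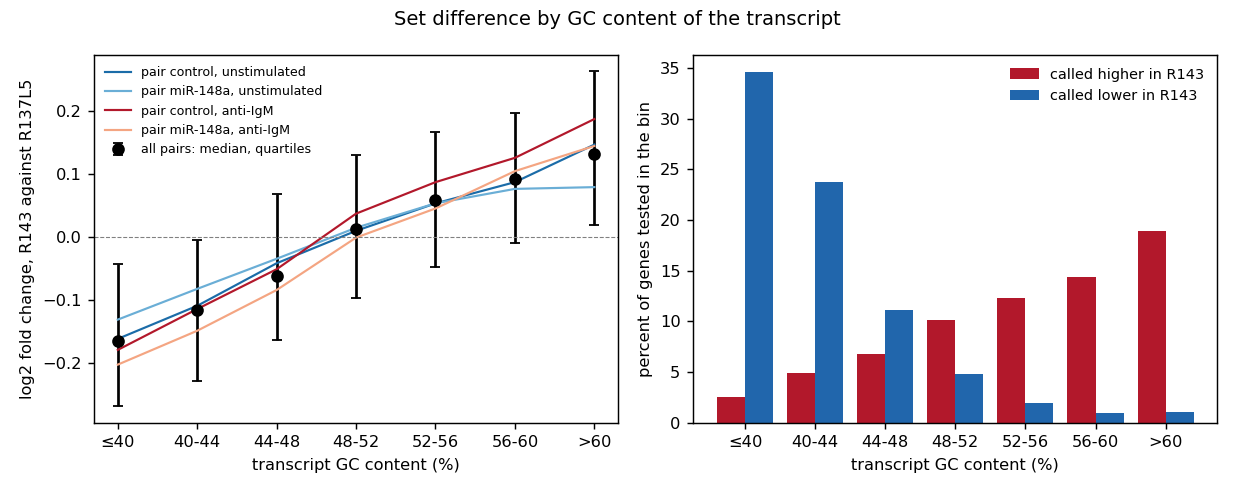
Log2 fold change, R143 against R137L5, by GC content of the transcript (left, medians with quartiles as bars and 1 line per pair) and the percent of genes in each bin called higher or lower (right, bars from 0). Medians run from -0.16 in the lowest to 0.13 in the highest bin, and the line of each of the 4 pairs climbs in the same way.

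Shares called also differed with transcript length, at both ends of its range. Of 69 genes with transcripts of 500 bases or less, 39.1% were called higher and 8.70% lower, with a median of 0.34. Of 1526 genes with transcripts above 6000 bases, 26.6% were called higher and 4.78% lower, with a median log2 fold change of 0.10. Among genes of 2000 to 3000 bases the shares were 5.29% and 10.4%. Genes that span at most 2000 bases of the genome were called higher in 23.7% of 308 and lower in 5.84%. Genes that span more than 200000 bases of the genome were called higher in 27.9% of 377 and lower in 2.65%. The bins of the shortest transcripts and spans also hold many clustered histone genes called higher, such as Hist1h4k (312 bases) and Hist2h2bb (381 bases). Length, span and level were not separated from each other or from the clustered histone genes.

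The largest falls were smaller than the largest rises. Both were picked among called genes with the same sign in every pair, so that agreement was a condition of choice. Pou2f3, a POU factor of the Oct family, went from 1.22, 7.81, 0.335 and 2.47 CPM to 0.271, 1.92, 0.174 and 0.461 CPM (log2 fold change -2.04 ± 0.28, adjusted p = 0.000296). It was lower in R143 within each pair. The sets overlapped, and in both the miR-148a libraries were above the control ones. Cd55, a membrane inhibitor of complement, fell from 16, 17.5, 22.3 and 28.1 CPM to 8.75, 7.84, 8.61 and 12.1 CPM (log2 fold change -1.15 ± 0.11, adjusted p = 1.49e-05), and its sets did not overlap. Rasgrp3, a Ras activator downstream of the B cell receptor, fell from 5.27, 4.90, 2.85 and 2.47 CPM to 2.62, 2.23, 1.22 and 0.923 CPM (log2 fold change -1.14 ± 0.20, adjusted p = 0.00163).

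Dusp6, the phosphatase that turns off ERK, was at 1.61, 2.07, 7.53 and 3.62 CPM in R137L5 and at 0.812, 0.846, 3.39 and 2.03 CPM in R143 (log2 fold change -1.07 ± 0.22, adjusted p = 0.00443). Also among the largest falls were the kinase gene Dyrk3 (-1.06), the keratin gene Krt222 (-1.03) and Zap70, a kinase of antigen receptor signalling (-0.91). Another was Pira1, of the paired Ig-like receptors, whose near-identical copies make its counts uncertain (-0.99). Cdkn2a, which encodes cell cycle inhibitors, fell by 1.27 on the log2 scale (adjusted p = 0.00468). Vwa2 was called at -0.95, but was at -0.27 (adjusted p = 0.692) without the AGM 2 pair and at -0.96 (adjusted p = 0.0503) without the AGM 3 pair.

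Immediate early genes are switched on within minutes of a stimulus and their messages decay fast. Of 18 that passed the filter, 4 were called lower and 0 higher, beside 9.08% and 9.72% of all genes. A row that passed only through its R137L5 level had to differ, so these counts are a description. With at least 1 CPM in every library, 2 of 15 were lower and 0 higher (median 0.02), beside 968 and 935 of 10114 genes. With no filter, 5 of 23 were lower and 1 higher, beside 1380 and 1169 of 15449. The summed level of the list changed by a factor of 1.06, 0.929, 1.19 and 1.02 (AGM 1 to 4). Fos was at 0.277, 1.23, 4.02 and 4.28 CPM in R137L5 and at 0, 0.538, 0.435 and 1.11 CPM in R143 (log2 fold change -2.16 ± 0.38, adjusted p = 0.00181). Its partner Fosb was at 0.277, 0.919, 1.67 and 2.30 CPM and at 0.180, 0.154, 0.174 and 0.369 CPM (log2 fold change -2.45 ± 0.48, adjusted p = 0.00354). Both were lower in R143 in each pair, at levels of few counts, and in R137L5 both were highest with anti-IgM. Jun fell by 0.53 on the log2 scale, and without the AGM 2 pair its value was -0.26 (adjusted p = 0.172). The median of the 18 genes was -0.05.

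Heat shock genes, which encode protein chaperones, were lower in R143 in 7 of 12 that passed the filter (9.08% of all genes), with none higher and a median log2 fold change of -0.25. Dnaja1, a co-chaperone of Hsp70, fell from 496, 499, 385 and 352 CPM to 393, 352, 335 and 219 CPM (log2 fold change -0.43 ± 0.07, adjusted p = 0.000772). Hsp90aa1, an inducible Hsp90, fell from 2556, 2333, 2236 and 1905 CPM to 2274, 1984, 1855 and 1291 CPM (log2 fold change -0.31 ± 0.06, adjusted p = 0.00272). Within each pair the R143 library was the lower one for both genes. The list's median GC content was 45.8%, and its median difference was -0.19 after the median of the GC bin was subtracted.

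Proteasome subunits were lower in 15 of 37 (40.5%, beside 9.08% of all genes), with none higher and a median of -0.13. Psma3, of the core particle, fell from 256, 244, 243 and 225 CPM to 195, 183, 179 and 147 CPM (log2 fold change -0.46 ± 0.05, adjusted p = 9.28e-05), and its sets did not overlap. Oxidative phosphorylation genes encoded in the nucleus were lower in 24 of 75 (32%) and higher in 1, with a median of -0.12. Atp5j, a subunit of ATP synthase, fell from 231, 218, 197 and 215 CPM to 150, 171, 142 and 141 CPM (log2 fold change -0.51 ± 0.06, adjusted p = 7.62e-05). After the GC bin medians were subtracted, the medians of the 2 lists were -0.12 and -0.13. Cytosolic ribosomal protein genes were higher in 7 and lower in 13 of 83 (8.43% and 15.7%, beside 9.72% and 9.08% of all genes), with a median of -0.06. Rpl5 fell by 0.38 and Rpl36 rose by 0.37 on the log2 scale, so members of the list moved both ways.

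**Figure D5:**
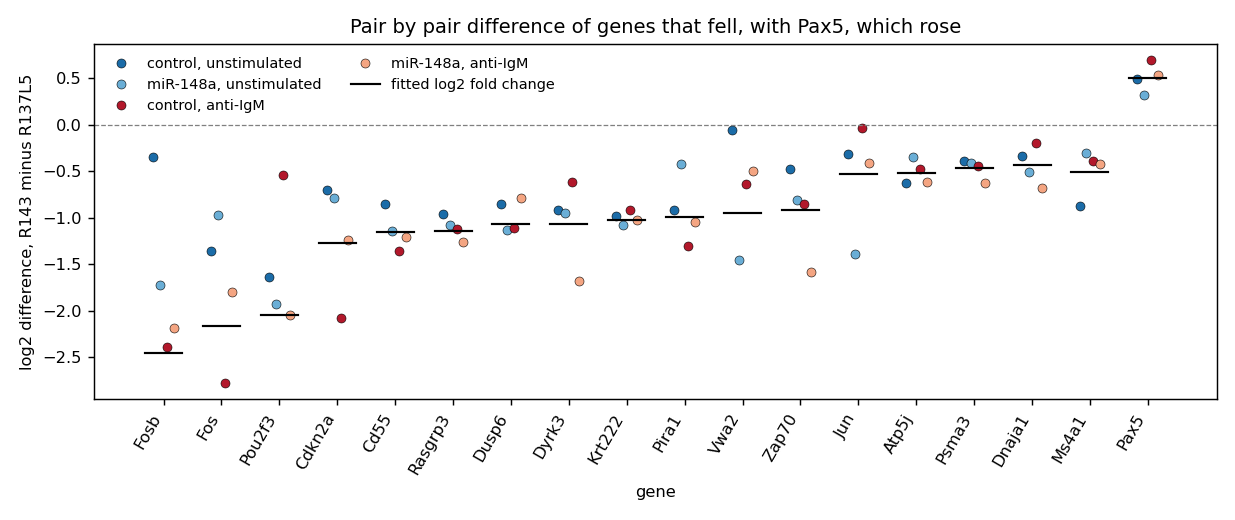
Log2 difference of CPM, R143 minus R137L5, in each of the 4 pairs (points) and the fitted log2 fold change (bar) of 17 genes called lower and of Pax5, called higher. Every plotted point of the 17 genes is below 0, and Pax5 is above 0 in each pair. The 10 largest falls among them were picked for the same sign in all 4 pairs, so for these the agreement was a condition of choice. Of all 1025 genes called lower, 990 were lower in all 4 pairs.

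Genes of the B cell programme did not move as a group. Of 8 B lineage genes, Pax5 was called higher and Ms4a1 and Blk lower, and Blk (-0.32) lost its call without the AGM 1 pair (-0.17, adjusted p = 0.147) or the AGM 2 pair (-0.33, adjusted p = 0.0701). Pax5, the factor that keeps B cell identity, rose from 148, 195, 115 and 150 CPM to 209, 244, 186 and 218 CPM (log2 fold change 0.50 ± 0.06, adjusted p = 0.000114). Ms4a1, which encodes CD20, fell from 157, 126, 111 and 159 CPM to 85.4, 102, 84.7 and 119 CPM (log2 fold change -0.50 ± 0.08, adjusted p = 0.000920). Of 18 NF-kB genes, 4 were higher and 1 lower (22.2% and 5.56%, beside 9.72% and 9.08% of all genes), with a median of 0.11. Nfkbia, the inhibitor that NF-kB itself induces, rose from 168, 231, 76.0 and 101 CPM to 214, 251, 135 and 118 CPM (log2 fold change 0.36 ± 0.09, adjusted p = 0.00984), and its level was lower with anti-IgM in both sets. Of 19 interferon-stimulated genes, 2 were lower (10.5%) and 0 higher, and of 23 sterol synthesis genes 1 was higher (4.35%) and 4 were lower (17.4%). Idi1, an isomerase of the sterol pathway, fell from 436, 331, 231 and 134 CPM to 372, 256, 172 and 90.9 CPM (log2 fold change -0.39 ± 0.06, adjusted p = 0.000574).

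Whether the set difference itself depended on the condition was tested as an interaction. No gene was called for anti-IgM against unstimulated pairs (0% of 11291), and 487 genes, 4.31%, had an unadjusted p under 0.05 in edgeR, the only tool run for it. Leaving out the AGM 3 or the AGM 4 pair did give calls, but such a fit keeps a single pair on one side, so their number is not given. With 2 pairs on each side and 2 residual degrees of freedom, the lack of calls in the full fit is no sign that the set difference was equal in the 2 conditions. For the miR-148a against the control line, 68 genes (0.602%) were called, 40 with a more positive set difference in the miR-148a pairs and 28 with a more negative one. The number moved when a pair was left out, most without the AGM 2 pair. Each such fit keeps a single pair of one line, so these numbers are not given.

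Ankrd37, a hypoxia-induced gene, was among them. It went from 15.2 to 4.87 and from 7.70 to 5.83 CPM in the control line pairs (AGM 1 and 3) and from 8.04 to 10.5 and from 7.73 to 12.6 CPM in the miR-148a pairs (AGM 2 and 4), a difference of 1.66 ± 0.28 on the log2 scale (adjusted p = 0.000644). Lrrc32, which encodes a membrane anchor of latent TGF-beta, changed from 7.43 to 7.13 and from 16.6 to 22.8 CPM in the control line and from 4.52 to 9.38 and from 6.74 to 23.0 CPM in the miR-148a line (1.18 ± 0.25, adjusted p = 0.0125). Stk39, a kinase of ion transport, changed from 15.9 to 19.7 and from 12.1 to 14.2 CPM in the control line and from 35.6 to 16.9 and from 12.7 to 8.21 CPM in the miR-148a line (-1.22 ± 0.20, adjusted p = 0.000489). Acsl6, an acyl-CoA synthetase, went from 75.9 to 105 and from 85.7 to 87.1 CPM in the control line and from 64.3 to 52.5 and from 97.9 to 49.6 CPM in the miR-148a line (-0.89 ± 0.15, adjusted p = 0.000498).

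Whether the differences between R143 and R137L5 arose in the cells, in the selection of tailed RNA, in library making or in sequencing was not tested. The 2 sets cannot be told apart from any of these steps, because each step may have differed between them.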

How the data were processed

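PolyA-selected RNA of 2 lines in 2 conditions was sequenced in 8 libraries. The table the authors deposited gives raw expected counts by gene symbol, and 9.11% to 12.4% of a library's values are fractional. The tools were TopHat2 2.0.13 with Bowtie2, cutadapt, Partek 6.15.0730, edgeR and CASAVA 1.8, and the builds mm10 and GRCm38, per the submitters' processing notes. For the counting, annotation and strand setting were not given in the sources used here. Of 24081 rows, 27 had names turned into dates (0.213% to 0.235% of counts) and were left out.

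Counts were rounded. Genes kept by filterByExpr (grouped by line and condition) were fitted with edgeR 4.0.16 (R 4.3.3, TMM factors, AGM number as a block, 3 residual degrees of freedom), and p-values were adjusted over all 11291 genes. Interactions with condition or line had 2. The biological coefficient of variation was 5.98% with the block and 22.1% without. The pairing comes from the AGM numbers in the labels, which mark the line and condition. Libraries with the same number deviated together from their set's mean (r across genes 0.621 to 0.745). On simulated counts the fit recovered 76% of genes changed by 0.5 and 98% of those changed by 1 on the log2 scale, with 4.59% false calls. The simulation gave each gene 1 mean in all libraries, with no effect of line or condition, and changed 200 genes. Its rates therefore need not hold for these data. In each library 3 counts were worth 0.166 to 0.502 CPM, a floor for counting error only.

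Lists were symbol patterns or symbols, and their members and all lists were chosen with earlier results of these data known. Named genes were the 10 largest rises and falls among calls with 1 sign in all pairs and mean log2 CPM not under 1 (without predicted and RIKEN genes), up to 4 called members of each list, or 2 uncalled ones, and 5 genes per direction of each interaction. Others are marked as named after their values were seen. GC content, length, spans and 3′ ends came from GENCODE vM21, which matched 95.75% of the genes tested. Alternatives were DESeq2 1.42.0, other scalings and filters, no rounding, no block and leaving out each pair.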

Additional observations from a re-analysis of the deposited data

Results flagged for a closer look

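In 9 of 153 values examined, 1 pair stood apart from the other 3 by Dixon's criterion, which chance meets in about 1 of 20 groups. The pair differences were -0.67 for Ccne2 in the AGM 4 pair, -0.27 for Cox7c, 3.89 for Hist2h3c1, 0.26 for Pisd-ps2 and -0.11 for Rpl34-ps1 in the AGM 3 pair, and 0.0595 for H2afy in the AGM 1 pair. The log2 ratio of the summed level was -0.27 for proteasome genes in the AGM 4 pair, and -0.0197 for predicted genes and 0.0734 for interferon-stimulated genes in the AGM 3 pair.

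The set difference was larger in one line than in the other, by the interaction test, for 10 named genes, given as the miR-148a minus the control line value on the log2 scale. It was 5.44 for Trpc2, 1.85 for ChkbCpt1b, 1.66 for Ankrd37, 1.33 for the pseudogene Gm8979 and 1.18 for Lrrc32. It was -2.31 for Pappa2, -1.70 for Xntrpc, -1.22 for Stk39, -0.89 for Acsl6 and -0.74 for Tnfsf9. Trpc2 and Xntrpc overlap on the same strand, and ChkbCpt1b is named for 2 genes, so their counts depend on how reads were shared and are uncertain.

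The 27 rows named as dates, which name no gene, held up to 0.235% of a library's counts.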

How the results depend on the processing

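The number of genes called higher in R143 was 1098 and that called lower 1025. Without the replicate block, which leaves line and condition in the residual, 81 and 4 genes were called, and 23 in place of 42 clustered histone genes were higher. All 85 genes called so were also called with the block. DESeq2 called 590 higher and 613 lower. With 1 pair left out, 672 to 962 genes were higher and 635 to 787 lower, and 38 to 41 clustered histone genes were higher. With at least 1 CPM in every library, 2 clustered histone genes and 39 genes of the line interaction were called. Leaving out 1 pair gave 0 to 58 genes for the condition interaction and 60 to 349 for the line interaction, settings chosen after seeing the data. Scaling by size factors or by the library total, no filter and unrounded counts moved none of the counts of all genes called higher, all genes called lower and clustered histone genes called higher by over 1.5 times. For the interactions only the 2 scalings were run among these. Counts in small lists moved more with no filter, as in the ribosome biogenesis genes, from 2 higher and 1 lower to 7 and 5. No named gene changed sign while called. Of 122 named genes, 84 lost their call without the block, 20 with DESeq2 and 12 to 20 when a pair was left out. Depth limits what can be seen of snoRNAs and of other rows near 3 counts.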
